A study of Mus musculus with 5 samples.

Results

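The cells described here are the Krt18-positive sarcoma cells of 4 mouse tumours, set against the Krt18-negative sarcoma cells of the same tumours. A sarcoma cell was a cell with at least 500 detected genes, at most 10% mitochondrial counts, at least 2 unique molecular identifiers (UMIs, counted transcript molecules) of Gchfr, 0 of Smarcb1, fewer than 2 summed over the stromal genes Ddah1, Wisp1, C1qtnf7 and Fbn2, and fewer than 5 per 10000 of the mural gene Rgs5. This rule kept 18084 of the 29412 sarcoma cells that passed the quality limits, and 37519 cells passed them over all 5 libraries. A sarcoma cell was Krt18-positive with at least 2 Krt18 UMIs and Krt18-negative with 0. There were 183 positive and 17821 negative cells, and 80 cells with 1 UMI entered neither side. Sarcoma 1 held 110 positive cells, sarcoma 2 held 1, sarcoma 3 held 47 and sarcoma 4 held 25. Measured Krt18 counts therefore chose the members, and Krt18 differences between the sides are given as descriptions only.

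The tumours came from C57BL/6J mice of the genotype Hic1CreERT2/CreERT2;Rosa26LSLtdTomato/LSLtdTomato;Smarcb1FL/FL, and were taken from the shoulder (sarcoma 1), head (sarcoma 2), head/ear (sarcoma 3) and hip (sarcoma 4) at an endpoint. The 1 comparison library was hindlimb muscle of Hic1CreERT2/CreERT2;Rosa26LSLtdTomato/+ mice, which carry the driver and the reporter without the floxed Smarcb1 allele. Mice of 8 weeks received 2.5 mg tamoxifen in 100 uL oil on 5 consecutive days, so every library, muscle included, comes from the tamoxifen protocol. The labels also give every library a washout of 10 days. Cre is driven from the Hic1 locus, and Smarcb1 can thus be lost only where Hic1 is or was active. All libraries were 10x Chromium 3' v2 libraries of cells purified by FACS, and the labels give every one of them the cell type mesenchymal progenitors. The labels do not say whether the 4 tumours came from separate animals, so the spread between them need not be a spread between animals.

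Krt18 and Krt8 encode the keratins of simple epithelia. Keratin filaments are obligate pairs of a type I and a type II chain: Krt18 is the type I partner and Krt8 the type II partner, and the unpaired chain is degraded. Mesenchymal cells normally build their intermediate filaments from vimentin instead. SMARCB1 belongs to the core of SWI/SNF, the complex that uses ATP to move nucleosomes, and its loss marks human rhabdoid tumours and epithelioid sarcoma, in which tumour cells stain for keratins and vimentin together.

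The 2 genes are neighbours on mouse chromosome 15. Their promoters are shown because Krt18 chose the members and Krt8 is its filament partner. Krt8 was not part of the rule. In the GENCODE annotation of GRCm38.p6, Krt8 spans chr15:101996698-102004482 on the minus strand and Krt18 spans chr15:102028180-102032027 on the plus strand, with starts 23698 bases apart. The promoter sequences are from RefSeq for the same build, whose start sites lie downstream of the GENCODE starts in both genes. Each runs 5′ to 3′ on the strand of its gene, from 250 bases before the RefSeq start site into the first 30 bases of the transcript. Capitals mark the TATA box letters TATAA and the E-box letters CACCTG, the form bound by ZEB and SNAIL factors.
Krt18, chr15:102027966-102028245, plus strand: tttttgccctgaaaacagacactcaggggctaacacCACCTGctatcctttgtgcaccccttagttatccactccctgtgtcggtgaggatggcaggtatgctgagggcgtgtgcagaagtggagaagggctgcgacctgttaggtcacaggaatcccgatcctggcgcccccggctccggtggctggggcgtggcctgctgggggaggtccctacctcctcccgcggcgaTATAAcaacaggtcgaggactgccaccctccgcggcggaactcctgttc
Krt8, chr15:102004313-102004592, minus strand: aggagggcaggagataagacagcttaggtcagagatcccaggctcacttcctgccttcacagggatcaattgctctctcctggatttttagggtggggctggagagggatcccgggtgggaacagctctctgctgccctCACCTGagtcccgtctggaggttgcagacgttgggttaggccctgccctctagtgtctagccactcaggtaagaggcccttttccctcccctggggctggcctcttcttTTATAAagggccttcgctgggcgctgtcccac
CACCTG, searched on both strands, stood at positions -214 to -209 of Krt18 and -111 to -106 of Krt8, counting the start site as 0, and occurred in 19.1% of the 32851 mouse promoters of this length. TATAA stood at -19 to -15 in Krt18 and at -1 to 3 in Krt8, where its reverse complement overlaps it at -2 to 2, and occurred in 24.0% of promoters. The GC box GGGCGG, found in 34.7% of promoters, and the AP-1 letters TGANTCA, found in 7.46%, were in neither window. The E-box was searched after the levels of Zeb2 on both sides had been seen. A match is a run of letters and not a measured binding site.

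The libraries held 64061069 UMIs over all barcodes of the muscle and 151903246 to 213271163 over those of the sarcomas, with cells outside the quality limits included. The median kept cell had 7566 UMIs in the muscle and 20005 to 28657.5 in the sarcomas. Between 9 and 20 cell barcodes were shared by any pair of libraries, and 3 of the 183 positive cells carried a barcode found in another library. Levels below are UMI counts of the summed cells scaled to a total of 1000000 (CPM), without the 8 genes used by the rule.

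Krt18-positive cells were a small minority of the sarcoma cells in every tumour. They made up 2.21% of sarcoma cells in sarcoma 1 (exact 95% binomial interval 1.82 to 2.66%), 1.73% in sarcoma 3 (1.27 to 2.30%) and 0.814% in sarcoma 4 (0.527 to 1.20%). In sarcoma 2 the share was 0.0137% (0.000346 to 0.0761%), which is 1 cell of 7316. The intervals of sarcomas 1 and 3 overlapped, and those of sarcomas 4 and 2 lay below both. These intervals cover counting error only. With every cell thinned to 5000 UMIs, the shares were 0.986% in sarcoma 1 (0.728 to 1.30%), 1.23% in sarcoma 3 (0.850 to 1.73%) and 0.299% in sarcoma 4 (0.137 to 0.566%). None of 6488 thinned cells was positive in sarcoma 2 (limit 0.0462%). Thinning left out 110, 39, 61 and 828 shallower cells of sarcomas 1, 3, 4 and 2. The intervals of sarcomas 1 and 3 again overlapped. None of the 8107 muscle cells had 2 Krt18 UMIs, which allows a share of up to 0.0370%, at a lower depth. Cells with a Smarcb1 UMI and no Gchfr UMI were also counted within the tumours. Gchfr is itself a transcript of the sarcoma cells, so the limit of 0 Gchfr UMIs also leaves out cells holding free tumour RNA. A low Krt18 share within that limit thus does not measure free RNA. In sarcoma 3, 13 of 1300 such cells (1%) had at least 1 Krt18 UMI, against 2.62% of the sarcoma cells. At least 2 were found in 2 of them (0.154%), against 1.73% of the sarcoma cells. In sarcoma 1, none of 206 such cells had at least 2 (limit 1.46%), at a median of 17378 UMIs against 26170 in the sarcoma cells. In sarcoma 4 none of 39 did, where the limit of 7.69% lies above the measured share.

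**Figure D1:**
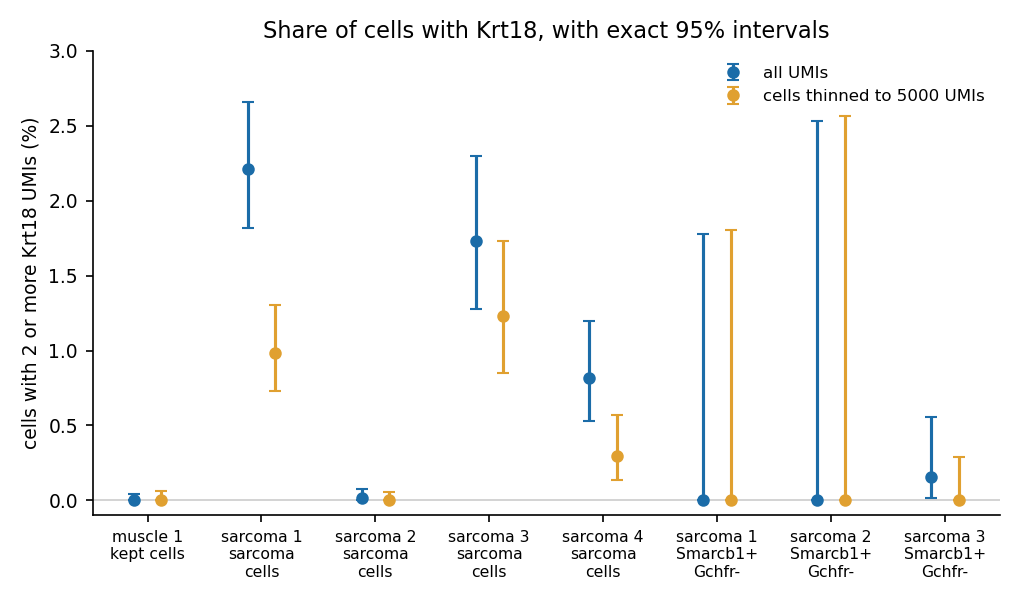
Share of cells with at least 2 Krt18 UMIs (%, y axis) in the kept muscle cells, the sarcoma cells of each tumour and the Smarcb1-positive, Gchfr-negative cells of sarcomas 1 to 3 (x axis), with exact 95% binomial intervals, for all UMIs and for cells thinned to 5000 UMIs. The share reached 2.21% in sarcoma 1 and 0.0137% in sarcoma 2.

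The amount of Krt18 per positive cell differed widely. In sarcoma 1 the positive cells held 2 to 154 Krt18 UMIs, with a median of 7.5. In sarcoma 3 they held 2 to 327, with a median of 18. In sarcoma 4 they held 2 to 16, with a median of 6, and the single positive cell of sarcoma 2 held 4. A few cells carried most of the transcript: the 10 highest cells held 41.0% of all Krt18 UMIs of the positive cells in sarcoma 1, 73.1% in sarcoma 3 and 64.8% in sarcoma 4. At the threshold itself, 13, 7 and 3 cells of sarcomas 1, 3 and 4 had exactly 2 UMIs, just inside, and 37, 24 and 19 had exactly 1, just outside. At least 10 UMIs were found in 47, 29 and 7 cells.

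**Figure D2:**
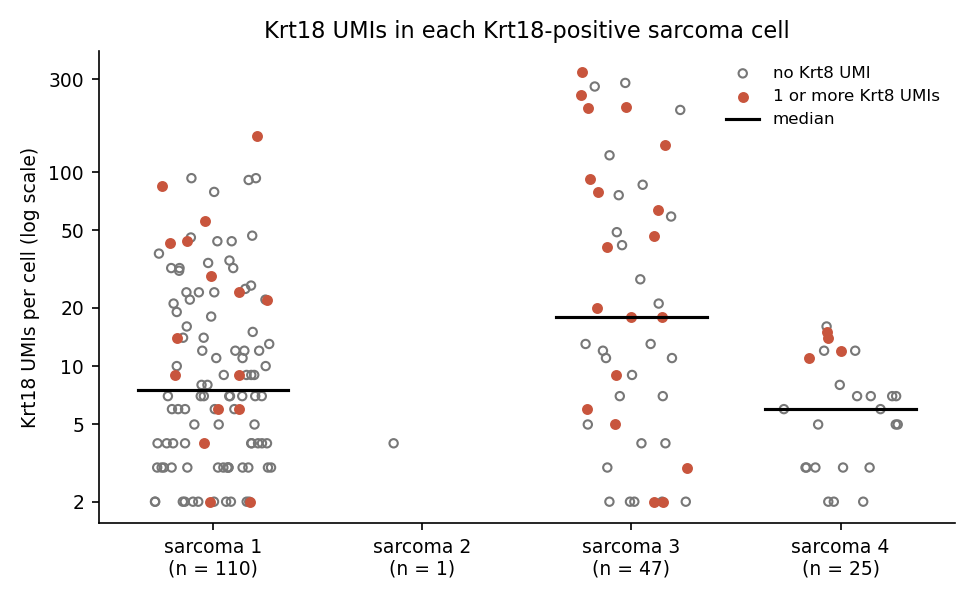
Krt18 UMIs of each Krt18-positive sarcoma cell (log y axis) by tumour (x axis), with the median as a line and filled points for cells that also held Krt8. Sarcoma 3 reaches 327 UMIs and sarcoma 4 stays at 16 or below.

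The positive cells were not spread evenly over the expression clusters of each tumour. Cells of each library were clustered separately, and the clusters carry numbers only. In sarcoma 1, cluster 0 held 73 positive cells among its 1633 sarcoma cells (4.47%) and cluster 4 held 25 among 418 (5.98%). They took 66.4% and 22.7% of the positive cells. In sarcoma 3, cluster 4 held 34 among 531 (6.40%, or 72.3% of the positive cells) and cluster 2 held 12 among 236 (5.08%, or 25.5%), while clusters 1 and 3 held none. In sarcoma 4 the shares were lower, with 11 among 863 in cluster 5 (1.27%) and 9 among 468 in cluster 4 (1.92%). Clusters also differed in depth, which bears on a threshold of 2 UMIs. Median UMIs were 31157 and 39494 in clusters 0 and 4 of sarcoma 1 against 19997.5 to 23718 in clusters 1 to 3, which held 6 positive cells together. In sarcoma 3 they were 26013 and 34290 in clusters 4 and 2 against 23029 and 16431.5 in clusters 1 and 3, while cluster 0, at 28161, held 1 positive cell among 298. In sarcoma 4 they were 26834 and 33801.5 in clusters 5 and 4 and 36114.5 in cluster 1, which held 3 positive cells among 880 (0.341%). The clusters with the highest shares stayed mostly Krt18-negative, with 6.40% as the highest share named here.

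**Figure D3:**
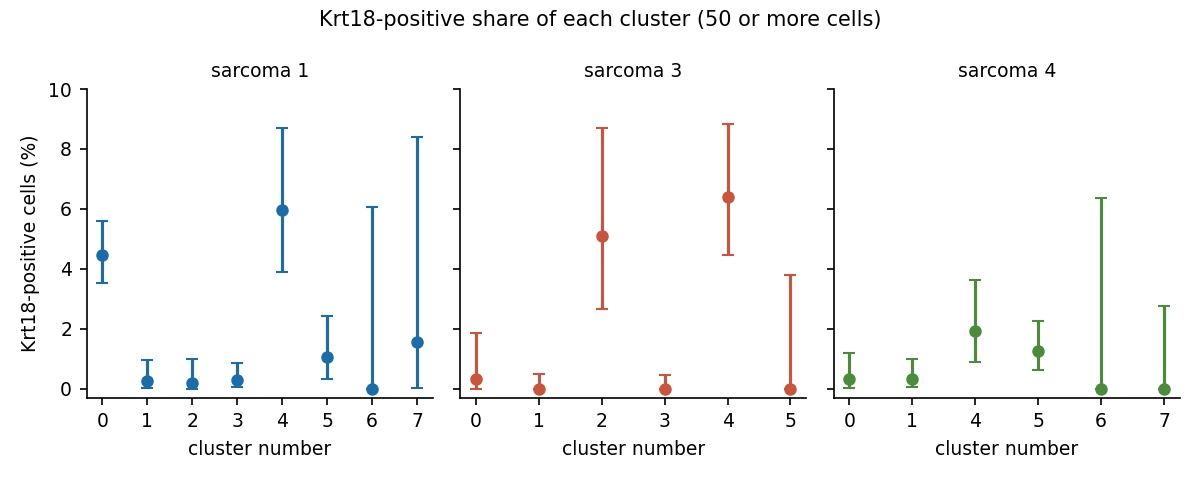
Krt18-positive cells as a percentage of the sarcoma cells of each cluster with at least 50 cells (y axis) by cluster number (x axis), one panel per tumour, with exact 95% binomial intervals. In sarcoma 1 the positive cells gather in clusters 0 and 4, and in sarcoma 3 in clusters 4 and 2.

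Each positive cell was matched to a negative cell of the same tumour within 10% of its UMI count, and all found a partner. The medians were 31360 UMIs in positive and 31345 in negative cells of sarcoma 1, 31545 and 31528 in sarcoma 3, and 29540 and 29539 in sarcoma 4. The most common cluster of each side held 66.4% of positive and 38.2% of matched negative cells in sarcoma 1, 72.3% and 31.9% in sarcoma 3, and 44% and 40% in sarcoma 4, so the matched sides differed in their spread over the clusters. Median mitochondrial shares were 3.04% and 3.08%, 2.84% and 2.86%, and 2.64% and 3.95% in the same order. Ribosomal protein genes took a smaller share of counts in positive cells in each tumour, with 17.7% against 19.3%, 12.8% against 14.9%, and 9.25% against 11.2%. Values from cells matched within clusters are given below for some of the genes and lists. The part of the mitochondrial and ribosomal shares in the gene differences was not tested.

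Krt8, the filament partner of Krt18, accompanied it in a minority of the positive cells. In sarcoma 1, 16 of 110 positive cells had a Krt8 UMI (14.5%, exact 95% interval 8.55 to 22.5%). In sarcoma 3 it was 19 of 47 (40.4%, 26.4 to 55.7%) and in sarcoma 4 it was 4 of 25 (16%, 4.54 to 36.1%). None of the matched negative cells had one, which allows shares of up to 2.73%, 6.38% and 12% by tumour. Among all Krt18-negative sarcoma cells, 4 of 4833, 17 of 2644 and 7 of 3029 had a Krt8 UMI. Seen from Krt8, the Krt18-positive cells were 80.0% of the 20 sarcoma cells with Krt8 in sarcoma 1, 51.4% of 37 in sarcoma 3 and 36.4% of 11 in sarcoma 4. Thus 39 of the 183 positive cells held both keratins.

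In each tumour the share of cells with Krt8 was highest among the cells with at least 10 Krt18 UMIs. In sarcoma 1 it was found in 2 of 13 cells with 2 Krt18 UMIs, 5 of 50 with 3 to 9 and 9 of 47 with at least 10. In sarcoma 3 the counts were 2 of 7, 4 of 11 and 13 of 29, and in sarcoma 4 they were 0 of 3, 0 of 15 and 4 of 7. Of the cells with a single Krt18 UMI, 0 of 37, 1 of 24 and 0 of 19 had Krt8. The groups are small and no test was made of this order.

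As a level, Krt8 stood at 28.2 CPM in the positive cells of sarcoma 1, 534 in sarcoma 3 and 8.02 in sarcoma 4, against 0 in the matched negative cells of all 3. Set against the floor of 3 counts per library, it was at least 35.7-fold higher in sarcoma 1, at least 278-fold in sarcoma 3 and at least 2.00-fold in sarcoma 4. In sarcoma 3, 2 cells held 722 of the 833 Krt8 UMIs. Without the 2 highest cells on the positive side, the bounds were at least 23.0-fold in sarcoma 1 and 37.0-fold in sarcoma 3. In the fit over 3 tumours described below, Krt8 had an unadjusted p of 5.48e-05 and an adjusted p of 0.455 by edgeR's quasi-likelihood test, which is not a call. The thinned fit (adjusted p = 1.1e-12 by edgeR) and the fit matched within clusters (adjusted p = 0.000835 by edgeR) did call it, as did the fit with no filter on low counts (adjusted p = 0.000562), 3 of its 15 alternatives.

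The rest of the simple epithelial programme was largely undetected. Of the 9 simple epithelial markers, 3, 3 and 2 had a UMI in the positive cells of sarcomas 1, 3 and 4. Krt7, Krt19, Cdh1 (E-cadherin), Cldn3, Cldn4 and Esrp1, a splicing regulator of epithelia, were at 0 in the positive cells of sarcomas 1 and 3. Krt19 was seen in sarcoma 4 in 1 cell on each side, with 6 UMIs in the positive cell (8.02 CPM) and 70 in the negative one (93.6 CPM). Epcam, an epithelial adhesion protein, was found in 17 positive and 2 negative cells of sarcoma 1 (20.1 against 1.32 CPM), at 1.28 against 1.92 CPM in sarcoma 3, and at 0 on both sides of sarcoma 4. The summed level of the markers was 53.1 against 3.17 CPM in sarcoma 1, 536 against 5.13 in sarcoma 3 and 16.04 against 93.6 in sarcoma 4, where that 1 negative cell gave the whole of the negative sum. Of the epithelial junction and polarity list, 4 of 34 genes had enough counts to be tested, and none lay on the same side in all 3 tumours. Over all tested genes, 13.3% were higher and 13.9% lower in all 3.

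The label mesenchymal progenitors and the other cell types that a sort could admit were read from fixed marker lists. The reporter tdTomato was detected in every positive cell, at 689, 1434 and 369 CPM in sarcomas 1, 3 and 4 against 666, 1278 and 242 in the negative cells. The mesenchymal progenitor markers summed to 1557 against 2639 CPM in sarcoma 1, 3169 against 6208 in sarcoma 3 and 447 against 1174 in sarcoma 4. Of the 11 listed, 8, 9 and 7 had a UMI in the positive cells. Their member Gsn stood at 229 against 548, 2104 against 4893 and 163 against 713 CPM. In sarcoma 4, 1 negative cell held 65.1% of the Gsn UMIs of its side. Their member Pdgfra stood at 145 against 190, 421 against 287 and 6.68 against 5.35 CPM, so it was higher in sarcomas 3 and 4. Haematopoietic markers summed to 87.1 against 69.2, 17.3 against 14.8 and 66.8 against 20.1 CPM, with 9, 9 and 2 of 16 detected in the positive cells and Ptprc, S100a9, Nkg7, Cd3e and Adgre1 at 0 in the positive cells of all 3 tumours. Endothelial markers summed to 537 against 367, 50.7 against 5.13 and 6.68 against 30.8 CPM, so positive cells were higher in sarcomas 1 and 3. Of these 10 markers 6, 6 and 3 were detected in the positive cells, with Emcn and Tie1 at 0 on both sides of all 3 tumours and Kdr and Vwf at 0 in sarcomas 1 and 3. Keratinocyte markers summed to 30.1 against 25.6, 13.5 against 23.7 and 61.5 against 112 CPM, and mural markers to 12.9 on both sides, 246 against 174 and 21.4 against 13.4. Mesothelial markers summed to 0.528 on both sides of sarcoma 1, 46.2 against 7.06 in sarcoma 3 and 2651 against 2279.6 in sarcoma 4, where 1 of the 8 was detected. Tenocyte markers summed to 1131 against 1239.7, 229.6 against 435 and 120.3 against 372 CPM. Markers of cancer-associated fibroblast stroma summed to 1765 against 1957, 7041 against 11125.5 and 21.4 against 0 CPM. Adipocyte markers summed to 157 against 25.1, 1.28 against 3.21 and 149.7 against 254 CPM, from 1 detected gene in the positive cells of each tumour. That gene was Fabp4 in sarcomas 1 and 3 and Car3 in sarcoma 4. Chondrocyte and osteoblast markers summed to 82.6 against 63.6, 46.8 against 48.8 and 37.4 against 46.8 CPM. Glial markers reached at most 77.6 CPM on the positive side and myogenic markers 4.75, and erythroid markers reached 191 CPM in the negative cells of sarcoma 3 and at most 1.34 elsewhere. The part of these cell types in the gene differences was not tested.

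Sarcoma 1 was the only tumour with 50 cells on each side, so the planned comparison rests on 1 library and has no test. Genes with at least 20 CPM on the higher side and at least 2-fold apart are described. Of 5820 genes, 131 were higher in the positive cells (2.25%) and 121 were lower (2.08%). Intervals beside these levels are exact Poisson intervals and cover counting error only.

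For several of the highest ratios, 1 positive cell held most of the UMIs. Slpi, a secreted protease inhibitor of epithelia, stood at 349.5 against 2.38 CPM, but 1 cell held 57.6% of its UMIs. One cell held 97.2% of the UMIs of Mmp1a, a collagenase (153 against 3.70 CPM), and Stfa2 was found in 1 positive cell only. Sct, encoding secretin, was in 9 positive cells and 1 negative cell (45.9 against 1.58 CPM), with 52.9% of the UMIs in 1 cell. Calca, encoding calcitonin and its related peptide, stood at 138 against 14.5 CPM, with 56.4% in 1 cell.

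Other genes were higher over many positive cells of sarcoma 1. Cited1, a transcriptional co-regulator, was found in 37 of 110 positive and 2 of 110 negative cells, at 96.6 CPM (87.0 to 107) against 4.49 (2.61 to 7.19). Igfbp4, which binds insulin-like growth factors, was in 39 and 10 cells, at 122 CPM (112 to 134) against 6.34 (4.06 to 9.43). Clusterin (Clu), a secreted chaperone, was in 28 and 6 cells at 269 CPM (253 to 286) against 24.8 (20.1 to 30.4). Mest, an imprinted gene, was in 34 and 13 cells at 68.4 against 6.60 CPM. Cited1, Igfbp4, Clu and Mest were named for their large ratios, so intervals that do not overlap between the sides follow from that choice. No cell held more than 31.3% of the positive UMIs of any of them.

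On the lower side, Hes1, a target and repressor of the Notch pathway, stood at 32.5 CPM (27.0 to 38.7) in positive and 148 (136 to 161) in negative cells, found in 28 and 61 cells. Npy, encoding neuropeptide Y, stood at 23.8 against 178 CPM (10 and 25 cells). Itga8, an integrin chain, was in 5 positive and 32 negative cells at 4.75 against 28.2 CPM. Ptgs1, the constitutive cyclooxygenase, stood at 6.07 against 35.1 CPM (12 and 31 cells), and AW112010 at 11.1 against 128 CPM (23 and 34 cells). Camp was at 0 against 44.4 CPM, with 97.0% of its UMIs in 1 negative cell. Hes1, Npy, Itga8, Ptgs1 and AW112010 were thus each detected in fewer positive than negative cells.

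Most of these sarcoma 1 differences did not keep their side in both other tumours. A gene without UMIs on both sides of a tumour, such as Cited1 in sarcoma 4, counted as not keeping it. Of the 131 higher genes, 24.4% lay on the higher side in both sarcomas 3 and 4, against 26.3% of all 5820 genes. Of the 121 lower genes, 24.8% lay on the lower side in both, against 24.7% of all genes. On the CPM + 1 scale, Btbd11, Gal, Krt8, Ltbp1, Nnat and Vgf were 2-fold higher in all 3 tumours and Apod, Fkbp14, Gsn, Mgp, Ptgs1, Vamp5 and Zeb2 were 2-fold lower. They are 4.58% of the higher genes and 5.79% of the lower genes. Of all 5820 genes, 1.29% were 2-fold higher and 0.687% were 2-fold lower in both sarcomas 3 and 4. In sarcoma 4, Zeb2 had 0 against 1 UMI, Ltbp1 had 1 against 0 and Ptgs1 had 0 against 3. These counts lie within the floor of 3, so sarcoma 4 gives no fold for those genes.

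Because 1 library gives no test, the minimum was lowered to 20 cells a side after the cell counts were seen, and sarcomas 1, 3 and 4 entered 1 paired fit with the tumour as a block. By edgeR's quasi-likelihood test, 0 of 8937 genes passed an adjusted p of 0.05 in either direction (0%), and the smallest adjusted p was 0.455. At an unadjusted p under 0.05 there were 235 higher genes (2.63%) and 237 lower genes (2.65%). DESeq2 called 7 higher and 4 lower genes, and limma-voom called none. The fit had 2 residual degrees of freedom. Of all tested genes, 13.3% were higher in the positive cells of all 3 tumours and 13.9% were lower in all 3. The fit on cells thinned to 5000 UMIs, which compares the positive cells with all negative cells, called 54 genes higher (0.478%) and 87 lower (0.77%) of 11292. In it the median over all genes was -0.12 on the log2 scale, against -0.01 in the matched fit. Of the genes described next, Zeb2, Gsn and Ltbp1 each passed an adjusted p of 0.05 in 3 of their alternatives (thinned, no low-count filter and DESeq2). Tpm1, Serping1 and Emp2 passed in 2 (thinned and DESeq2), Angptl7 in 1 (DESeq2), and Nnat, Mgp, Fkbp14, Apod, Cd34, Slc2a1 and Gadd45a in 1 (thinned). In the other alternatives their adjusted p reached up to 0.999968 by edgeR. Values below come from the depth-matched fit unless stated.

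Zeb2, which encodes a zinc finger repressor of epithelial genes such as E-cadherin, stood at 46.2 CPM in positive and 141 in negative cells of sarcoma 1. It stood at 34.0 against 121 CPM in sarcoma 3 and at 0 against 1.34 CPM in sarcoma 4, where it was barely detected on either side. It was found in 66 positive and 99 negative cells of sarcoma 1, and in 20 and 39 cells of sarcoma 3. The fitted log2 difference was -1.73 (SE 0.22, adjusted p = 0.521 by edgeR), and in the thinned fit it was -2.36 (adjusted p = 0.000153 by edgeR). Over the Krt18 classes of sarcoma 1, Zeb2 stood at 158 CPM with 0 Krt18 UMIs, 90.8 with 1, 68.8 with 2, 52.9 with 3 to 9 and 34.5 with at least 10. In sarcoma 3 the values were 113, 83.0, 36.1, 78.7 and 17.2 CPM. The order was unbroken in sarcoma 1 and broken at 3 to 9 UMIs in sarcoma 3. These classes were not matched for depth.

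Gsn encodes gelsolin, which severs and caps actin filaments. It stood at 229 against 548 CPM in sarcoma 1, 2104 against 4893 in sarcoma 3 and 163 against 713 in sarcoma 4. All 3 tumours were lower on the positive side by more than 2-fold, but in sarcoma 4 the gene was found in 10 cells on each side and 1 negative cell held 65.1% of its UMIs. The fitted log2 difference was -1.52 (SE 0.21, adjusted p = 0.521 by edgeR), and -1.71 in the thinned fit (adjusted p = 0.000428 by edgeR). Matched within clusters it was -0.70. By Krt18 class, without depth matching, Gsn stood in sarcoma 1 at 662 CPM with 0 Krt18 UMIs, 919 with 1, 309.7 with 2, 255 with 3 to 9 and 184 with at least 10. In sarcoma 3 the values were 6918, 4045, 4017, 1718 and 1982 CPM, so the order was broken in both tumours.

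Ltbp1, which tethers latent TGF-beta to the matrix, stood at 70.5 against 17.2 CPM in sarcoma 1 (48 and 22 cells), 181 against 43.6 in sarcoma 3 (32 and 16 cells) and 1.34 against 0 in sarcoma 4. The fitted log2 difference was 2.05 (SE 0.21, adjusted p = 0.455 by edgeR), and 1.92 in the thinned fit (adjusted p = 0.000779 by edgeR). Sarcomas 1 and 3 carry this difference, since sarcoma 4 had 1 positive cell with the gene. Nnat, encoding the membrane protein neuronatin, stood at 153 against 55.2, 117 against 35.3 and 8.02 against 0 CPM. Its positive cells with a UMI numbered 57, 28 and 2, against 17, 8 and 0 negative cells.

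Further genes on the higher side of all 3 tumours included Emp2, a tetraspan membrane protein of epithelia, with 17.4 against 4.75, 63.5 against 23.1 and 62.8 against 6.68 CPM. Its fitted log2 difference was 1.97, and 1.05 matched within clusters. Angptl7, a secreted angiopoietin-like protein, stood at 3.43 against 0, 50.03 against 1.28 and 390.4 against 112 CPM. It was found in 2 positive cells of sarcoma 1, with 92.3% of the UMIs in 1 of them, and in 4 of sarcoma 3, with 55.1% in 1. Its fitted log2 difference of 2.76 became 0.41 in the thinned fit. Vgf, a secreted neuropeptide precursor, stood at 31.7 against 11.6, 7.70 against 1.28 and 40.1 against 0 CPM, but rested on 1 positive cell each in sarcomas 3 and 4. Emp2 and Angptl7 thus had higher levels in sarcomas 3 and 4 than in sarcoma 1 on the positive side.

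Several named genes on the lower side of all 3 tumours encode secreted proteins. Mgp, an inhibitor of calcification, stood at 1646 against 3366, 1946 against 3997 and 4.01 against 66.8 CPM. Svep1, a large adhesion protein, stood at 1.58 against 8.18, 13.5 against 60.3 and 0 against 1.34 CPM. Serping1, the inhibitor of complement C1, stood at 6.34 against 14.5, 6.41 against 94.96 and 166 against 508 CPM. Its fitted log2 difference was -2.07, and -2.38 in the thinned fit (adjusted p = 4.18e-05 by edgeR). Fkbp14, a collagen-folding isomerase of the endoplasmic reticulum, stood at 33.8 against 72.1, 17.96 against 49.4 and 24.1 against 57.5 CPM. Its cells with a UMI numbered 55 and 87, 18 and 32, and 9 and 16, and its fitted log2 difference of -1.25 became -0.81 matched within clusters. Apod, an apolipoprotein of fibroblasts, stood at 16.1 against 42.8, 3.21 against 26.3 and 0 against 12.03 CPM. Matching within clusters turned Apod around, to a fitted log2 difference of 0.32. Cd34, a progenitor surface protein, stood at 20.1 against 40.7, 8.34 against 51.3 and 12.03 against 49.5 CPM, with a fitted log2 difference of -1.74. Matched within clusters it was -0.41. In sarcoma 4 Cd34 was found in 6 positive and 2 negative cells, and 1 negative cell held 86.5% of the UMIs of that side.

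**Figure D4:**
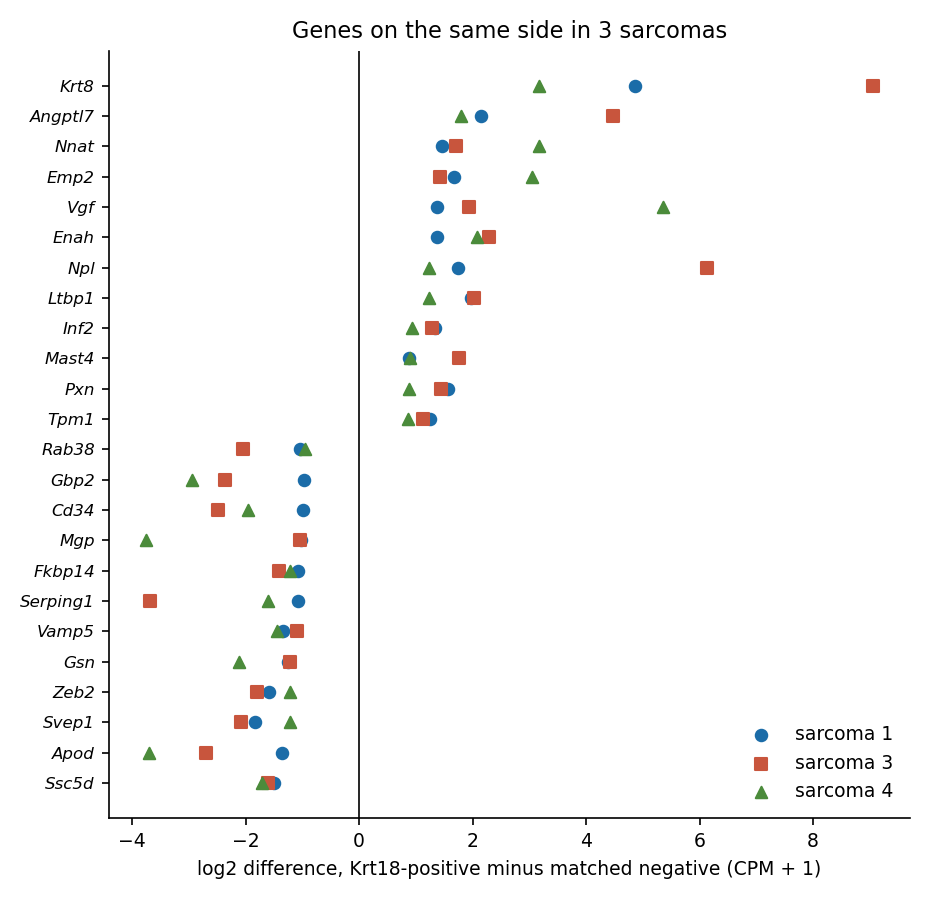
Log2 difference between Krt18-positive and depth-matched Krt18-negative cells (x axis, from CPM + 1) of genes chosen for lying on the same side in all 3 tumours (y axis), one symbol per tumour. Zeb2 and Gsn lie left of 0 and Ltbp1 and Nnat right of 0 in sarcomas 1, 3 and 4.

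Actin cytoskeleton and stress fibre genes leaned to the higher side. Of 18 tested, 9 were higher and 0 lower in the positive cells of all 3 tumours, where 13.3% and 13.9% of all genes did so. The list's median log2 difference was 0.23, against -0.01 over all genes. On the higher side 4 genes had an unadjusted p under 0.05 by edgeR, against 2.63% of all genes. Tropomyosin Tpm1, which coats actin filaments, stood at 499.97 against 209 CPM in sarcoma 1, 576 against 264 in sarcoma 3 and 282 against 155 in sarcoma 4. Its fitted log2 difference was 1.09 (SE 0.15, adjusted p = 0.521 by edgeR), and 1.12 in the thinned fit (adjusted p = 0.0132 by edgeR). Paxillin (Pxn), an adaptor of focal adhesions, stood at 47.3 against 15.3, 55.8 against 19.9 and 25.4 against 13.4 CPM. It was detected in 78 positive and 39 negative cells of sarcoma 1, 33 and 19 of sarcoma 3, and 12 and 7 of sarcoma 4. The actin crosslinker Actn1 stood at 228 against 209, 523 against 226 and 126 against 33.4 CPM, with a fitted log2 difference of 0.98. Zyxin (Zyx) stood at 172 against 157, 176 against 105 and 136 against 54.8 CPM, and Tpm2 at 461 against 349, 368 against 271 and 158 against 52.1. Enah, which elongates actin filaments, stood at 16.6 against 5.81, 28.9 against 5.13 and 20.1 against 4.01 CPM. The thinned fit called 1 gene of this list higher (Tpm1) and 1 lower. The lower one was smooth muscle actin Acta2, which was too low for the matched fit, at 1.06 against 6.07 CPM in sarcoma 1, 80.2 against 395 in sarcoma 3 and 0 in sarcoma 4 (thinned log2 difference -2.08, adjusted p = 0.00452 by edgeR). Tpm1, Pxn and Enah were named for lying on the higher side of all 3 tumours, so their direction follows from that choice. Pxn and Enah are not members of the list. Targets of YAP and SRF, which include cytoskeletal genes, had a median of -0.11, with 0 of 10 on the same side in all 3 tumours.

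Collagens and other matrix genes lay on the lower side. Of 21 tested, all had a fitted log2 difference below 0, with a median of -0.63. In all 3 tumours 9 were lower and 0 higher, against 13.9% and 13.3% of all genes. Spp1 is a member, at -0.32 (SE 1.14), but was higher in the positive cells of sarcoma 1 (2920 against 948 CPM). Its fitted log2 difference became 1.36 without sarcoma 4. By edgeR 9 of the 21 had an unadjusted p under 0.05 on the lower side, against 2.65% of all genes. The list's median was -0.63 in sarcoma 1, over the 14 members with at least 20 CPM there. Over the 21 tested members it was -0.78 in sarcoma 3 and -0.20 in sarcoma 4. Col3a1, a fibrillar collagen chain of soft tissue, stood at 143 against 304, 330.4 against 1331 and 469 against 572 CPM (fitted log2 difference -1.14, SE 0.33). Col1a1, the main chain of type I collagen, stood at 10.0 against 10.3, 281 against 1851 and 578 against 739 CPM, so that sarcoma 3 carries its difference of -1.12. Fibrillin Fbn1 stood at 79.2 against 128, 44.9 against 93.0 and 10.7 against 14.7 CPM. The proteoglycan decorin (Dcn) stood at 833 against 1318, 353 against 526 and 18.7 against 25.4 CPM, with a fitted log2 difference of -0.59 (SE 0.14). Sparc, a collagen-binding matrix protein, stood at 594 against 898, 837 against 2064 and 1237 against 1398 CPM. Of the mesenchymal progenitor markers, a list that shares Dcn and Lum with this one, 4 of 7 tested were lower in all 3 tumours, with a median of -0.59. The 3 tested tenocyte markers had a median of -1.53 and the 2 tested markers of fibroblast stroma -0.39, all below 0, and their part in the matrix genes was not tested.

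**Figure D5:**
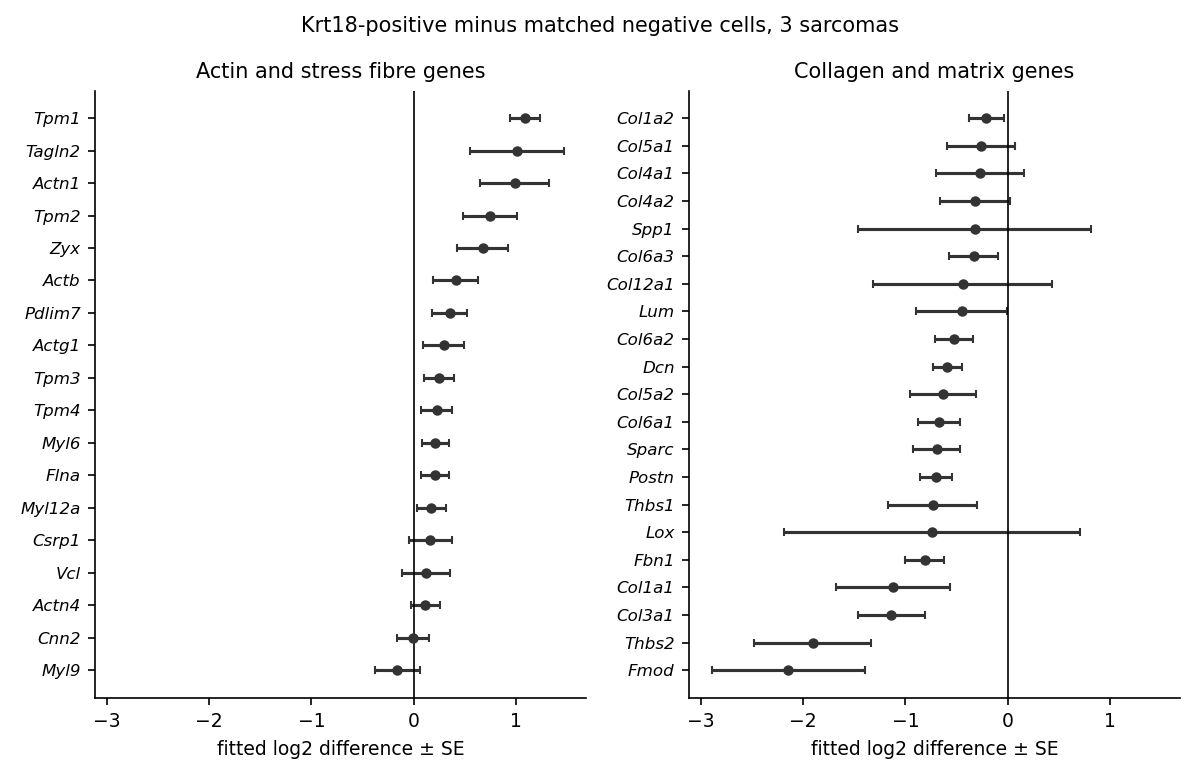
Fitted log2 difference ± SE between Krt18-positive and depth-matched negative cells over sarcomas 1, 3 and 4 (x axis) for each tested gene of the actin list and the collagen list (y axis). The actin genes centre on 0.23 and all 21 collagen and matrix genes lie below 0, Spp1 among them with an SE of 1.14.

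Regulators and markers of the epithelial to mesenchymal transition had no common direction. Of 13 tested, 1 was higher and 3 lower in all 3 tumours, against 13.3% and 13.9% of all genes, with a median of -0.04. Snai2, a repressor of E-cadherin, stood at 48.3 against 77.9 and 16.7 against 72.5 CPM in sarcomas 1 and 3 and at 0 in sarcoma 4. Twist1 stood at 524 against 370, 584 against 689 and 222 against 245 CPM, and Prrx1 at 885 against 750, 1202 against 909 and 353 against 312. S100a4, a calcium-binding protein of motile fibroblasts, stood at 781 against 2512, 696 against 875 and 6332 against 8264 CPM. Zeb2, Snai2 and S100a4 were thus lower wherever they were detected, while Twist1 and Prrx1 had fitted log2 differences of 0.04 and 0.27.

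Vimentin stayed high beside the keratins. Vim stood at 12805 against 12776 CPM in sarcoma 1, 17386 against 13168 in sarcoma 3 and 3326 against 1330 in sarcoma 4, with a fitted log2 difference of 0.57 (SE 0.26, adjusted p = 0.915 by edgeR). The level in positive cells was not below that of negative cells in any tumour. The list of intermediate filament genes other than keratins includes Vim. In it 3 of 7 tested genes, Vim among them, were higher in all 3 tumours and 0 lower. Over all genes, 13.3% were higher and 13.9% lower in all 3. The list's median was 0.23. Nefl, a neurofilament chain, stood at 2062 against 1193, 574 against 445 and 70.9 against 90.9 CPM. Plec, the plectin that links filaments to junctions, stood at 74.7 on both sides in sarcoma 1, 144 against 134 in sarcoma 3 and 156 against 152 in sarcoma 4. Lmna, encoding the nuclear lamins A and C, had a difference of 0.23.

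Ligands and targets of signalling pathways gave small counts. Over all tested genes, 13.3% were higher and 13.9% lower in all 3 tumours. Of 14 genes of the TGF-beta and BMP list, 3 were higher (21.4%) and 0 lower in all 3, with a median of 0.37. On the higher side 4 had an unadjusted p under 0.05 by edgeR, against 2.63% of all genes. Without depth matching the list's median was 0.03 over 22 tested genes, against -0.08 over all genes of that fit. The ligand Tgfb1 stood at 36.4 against 15.3, 35.3 against 20.5 and 42.8 against 6.68 CPM (fitted log2 difference 1.33, SE 0.33). The ligand Bmp2 stood at 338 against 112 and 23.1 against 7.06 CPM in sarcomas 1 and 3 and was not detected in sarcoma 4 (fitted log2 difference 1.61, SE 0.22, adjusted p = 0.669 by edgeR). Its target Id1 stood at 322 against 220, 36.6 against 28.2 and 126 against 88.2 CPM. WNT and hedgehog genes had 1 higher and 2 lower of 9. Immediate early genes, which respond to dissociation and to growth signals, had 2 higher and 4 lower of 23, with a median of -0.30. Among them Egr1 stood at 337 against 519, 87.9 against 231 and 253 against 358 CPM, and Nr4a1 at 16.6 against 43.8, 10.9 against 35.9 and 149.7 against 172. Interferon and antigen presentation genes had 1 higher and 4 lower of 18, with a median of -0.37. The immunoproteasome subunit Psmb10 stood at 54.1 against 90.3, 9.62 against 28.9 and 29.4 against 52.1 CPM, and Ifitm3 at 1482 against 1860, 545 against 1193 and 838 against 1189.

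Stress and metabolic lists gave mixed counts, beside 13.3% of all tested genes higher and 13.9% lower in all 3 tumours. Hypoxia and glycolysis genes had 6 higher and 2 lower of 21 in all 3 tumours, with a median of 0.15. The glucose transporter Slc2a1 stood at 84.7 against 61.5, 448 against 89.8 and 158 against 64.2 CPM, and its thinned fit gave an adjusted p of 0.00217 by edgeR. Its fitted log2 difference of 1.36 became 0.73 matched within clusters. The list of p53 targets and cell cycle inhibitors had 4 higher and 1 lower of 16. Its member Gadd45a, a stress-induced growth regulator, stood at 29.3 against 20.9, 129 against 26.9 and 178 against 58.8 CPM, with an adjusted p of 0.00104 in the thinned edgeR fit. The NRF2 and glutathione list had 5 higher and 4 lower of 20, the heat shock list 4 and 4 of 16 with a median of 0.00, and the unfolded protein and amino acid response list 4 and 3 of 19. Keratin-binding and desmosome genes had 1 higher and 0 lower of 9, chemokine and inflammatory genes 1 and 0 of 13, and laminin, integrin and basement membrane genes 2 and 1 of 13. The median of the chemokine and inflammatory list was -0.13. Matched within clusters it was -1.44, with 12 of 13 genes below 0. Matrix protease genes had 0 and 1 of 12, neural crest, notochord and developmental factors 4 and 1 of 13, apoptosis genes 3 and 1 of 18, and tetrahydrobiopterin genes 0 and 0 of 6. Ribosomal protein genes were lower in all 3 tumours for 20 of 22, with a median of -0.20, the same direction as the ribosomal share of counts given above.

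Cell cycle genes had no common direction over the 3 tumours, and their sarcoma 4 medians are of a size that a few UMIs give. The S phase list had 3 higher and 0 lower of 25, where 13.3% and 13.9% of all genes did so, with a median of 0.12. Its sarcoma 4 median of -1.22 equals what 0 against 1 UMI gives there, as for Zeb2. The G2/M list had 0 of 32 on the same side in all 3 tumours. Its median was 0.34 in sarcoma 1, over the 25 members with at least 20 CPM there. Over the tested members it was 1.36 in sarcoma 3 and -2.32 in sarcoma 4. In sarcoma 4, 0 against 3 UMIs gives -2.33, as for Ptgs1, so that median may rest on counts within the floor. Mki67, a marker of cycling cells, stood at 44.9 against 33.5, 46.2 against 21.8 and 0 against 28.1 CPM, and 1 negative cell held 90.5% of the 21 UMIs in sarcoma 4. Without sarcoma 4, 32 of 32 G2/M genes were above 0 (median 0.70), and 26 of 27 S phase genes (median 0.34). Without sarcoma 3 the medians were -0.29 and -0.09. Matched within clusters, the G2/M median was -0.19, with 23 of 32 genes below 0. Without the highest cell of each gene, 30 of 31 G2/M genes were above 0 (median 0.92). Cdkn2a, the p16 and p19 tumour suppressor locus, stood at 232 against 203, 96.9 against 130 and 147 against 110 CPM. Genes of SWI/SNF, the complex to which Smarcb1 belongs, and of polycomb had together 2 higher and 5 lower of 28 with a median of -0.10, and the list of MYC, ribosome assembly and translation genes had 2 higher and 0 lower of 19 with a median of 0.01. Spp1, the secreted phosphoprotein osteopontin, stood at 2920 against 948, 7.70 against 5.13 and 30.8 against 349 CPM, so the tumours disagreed in direction.

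Prohormone, granin and neuronal genes leaned to the higher side in the matched fit. Of 8 tested, 4 were higher and 0 lower in all 3 tumours, where 13.3% and 13.9% of all genes did so. The list's median was 0.43, against -0.01 over all genes. In the thinned fit it was -0.11 over 9 tested genes, against -0.12 over all genes. Cpe, the carboxypeptidase that trims prohormones, stood at 520 against 475, 600 against 318 and 1186 against 472 CPM. Penk, which encodes proenkephalin and was named after its values were seen, stood at 810.4 against 119.9 CPM in sarcoma 1 and 2017 against 182 in sarcoma 3, but at 107 against 493 in sarcoma 4. It was detected in 50 positive and 28 negative cells of sarcoma 1, 42 and 15 of sarcoma 3, and 5 and 13 of sarcoma 4. The fitted log2 difference of 1.74 carried an SE of 1.27 (adjusted p = 0.947 by edgeR), and sarcoma 4 went the other way from sarcomas 1 and 3.

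The genes next to Krt18 other than Krt8 had differences near or below 0. Of the 9 tested within 250000 bases, Eif4b had a fitted log2 difference of -0.09, Zfp740 of -0.11, Spryd3 of -0.34, Tns2 of -0.36, Rarg of -0.38 and Csad of -0.58. Igfbp6, a fibroblast-secreted binding protein of insulin-like growth factors, stood at 91.6 against 199, 123 against 209 and 3342 against 7833 CPM, with a fitted log2 difference of -1.05 (SE 0.14, adjusted p = 0.521 by edgeR). It was called lower in the thinned fit (adjusted p = 0.0132 by edgeR) and by DESeq2 (adjusted p = 0.0499). Mfsd5 had a difference of 0.13, so Krt8 and Mfsd5 were the tested neighbours above 0.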

How the data were processed

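The deposited files held raw UMI counts of 28001 features per cell, written by Cell Ranger. Per the file headers its version was 6.0.1, and the submitters' processing notes name the mm10 build. Cells were kept and classed by the limits given above, and no doublet caller was run. Each Krt18-positive cell was paired with the nearest unused Krt18-negative cell of its library within 10% of its UMI count, and counts were summed per library and side. The sums of sarcomas 1, 3 and 4 were tested with edgeR 4.0.16 in R 4.3.3 (TMM scaling, expression filter, quasi-likelihood test, library as block, Benjamini-Hochberg adjustment at 0.05). DESeq2 1.42.0 and limma 3.58.1 were alternatives. SEs were derived from the F statistic, and per-library log2 differences used CPM + 1. Thinned cells were drawn to 5000 UMIs. Clusters came from scanpy 1.11.5 (2000 variable genes, 30 components, 15 neighbours, Leiden resolution 0.5). The fits were tested on simulated data.

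The library numbers pair the sums because both sides of a pair come from the same library, so the block is part of the design. Named genes were those of a list of keratin, reporter and tumour genes, the 12 per direction with the largest smallest within-library difference, in sarcoma 1 alone and in the paired fit, and up to 4 members per pathway list. The members, the 29 gene lists and the 14 marker lists were chosen with earlier results of these data known. The minimum of 20 cells, the genes called in the thinned fit, the promoter motifs, the promoter window of 280 bases, which runs past the start site, the window around Krt18 and the genes shown by Krt18 class were chosen after values were seen. In a window ending at the start site, TATAA is in the Krt18 promoter and not in that of Krt8. Intervals cover counting error only.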

Additional observations from a re-analysis of the deposited data

Results flagged for a closer look

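Krt18 was also found in cells that the sarcoma rule left out. Among kept cells outside the rule, 38 of 2453 (1.55%) in sarcoma 1, 28 of 4234 (0.661%) in sarcoma 3 and 16 of 3751 (0.427%) in sarcoma 4 had at least 2 Krt18 UMIs, against 0 of 890 in sarcoma 2 and 0 of 8107 in the muscle. These cells were outside the comparison and above the muscle level, at a higher depth than the muscle. Of them, 30, 13 and 7 failed the limit on Gchfr alone. They held medians of 14, 10.5 and 4.5 Krt18 UMIs and highest values of 114, 460 and 31, and 10, 11 and 1 of them had a Krt8 UMI. Their part in the comparison was not tested.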

How the results depend on the processing

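For 59 genes of the paired fit, 1154 values under alternatives were computed: 34 values changed direction, in 10 genes, and 49 genes kept theirs throughout. The members named from pathway lists for their level, such as Col3a1 or Actn1, are not among the 59 and were followed through the medians of their lists. No value lost a call, since none was called; the cause of the changes was not tested. The counts of genes called were 0 higher and 0 lower under every alternative other than these: no depth matching (4 lower), thinning (54 higher, 87 lower), matching within clusters (1 higher, Krt8), no filter on low counts (8 and 7) and DESeq2 (7 and 4). Leaving out 1 tumour gave 0 to 0. Without the replicate block, which pairs the sums of each library, 0 genes were called. In sarcoma 1, the 131 higher and 121 lower genes became 209 and 279 with thinning and 327 and 242 from 5 CPM, and the lower count became 71 within clusters. List medians kept their sign over all settings for actin genes (0.16 to 0.39), collagen genes (-0.80 to -0.51) and ribosomal protein genes (-0.33 to -0.17), while G2/M genes ran from -0.29 to 0.96.

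Thinning gave Krt18 shares of 0.986%, 0%, 1.23% and 0.299% in sarcomas 1 to 4 and Krt8 shares of 8.18% and 25.5% in the positive cells of sarcomas 1 and 3. Counting cells from 1 Krt18 UMI gave 2.95%, 2.62% and 1.43% in sarcomas 1, 3 and 4. In sarcoma 1 alone, the log2 difference of Mmp1a became -0.18 without the deepest cells, that of Crispld1 0.00033 and that of Apod 0.94 within clusters. In the paired fit, Car2 became 0.57 without depth matching, 1.15 thinned, 0.53 from 1 Krt18 UMI, 0.27 at a mitochondrial limit of 5%, 0.11 from 1 Gchfr UMI and 0.47 by DESeq2. Npy became 0.34 by DESeq2 and 0.76 without the block, Cryab 0.068 by limma-voom and 0.36 without the block, Tenm4 -0.19 by DESeq2 and Apod 0.32 within clusters. Spp1 became 0.15 from 1 Gchfr UMI, 0.89 without its highest cell, 0.54 by limma-voom and 1.17 without the block. Cdkn2a became -0.047 without depth matching, -0.13 thinned and -0.13 within clusters, and Mki67 -0.30 within clusters and -0.73 by DESeq2. Pdgfra became -0.22 without depth matching, -0.33 thinned and -0.019 at a mitochondrial limit of 5%. Leaving out each tumour in turn gave -2.62 to 0.98 for Npy, -0.90 to 0.35 for Cryab, -1.04 to 0.14 for Hes1, -2.37 to 3.36 for Tenm4, -2.23 to 1.36 for Spp1, -0.11 to 0.29 for Cdkn2a, -0.39 to 0.70 for Mki67 and -0.32 to 0.54 for Pdgfra. The 25 positive cells of sarcoma 4 and its few Zeb2, Ltbp1 and Nnat counts limit what the fit can resolve.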
